A study of Mus musculus with 4 samples.

Results

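Stap1, 5730480H06Rik and Serpinb2 are 3 mouse loci at which ATAC-seq peaks were found in microglia lacking IRF8 at positions where wild-type microglia had none. Every deposited peak overlapping each gene body plus 50 kb on either side was taken, in GRCm38 coordinates with GENCODE M21 gene models. This gave 127 of the 677170 distinct peaks deposited in 4 lists, namely 47 at Stap1, 29 at 5730480H06Rik and 51 at Serpinb2. The 2 WT and 2 IRF8KO libraries came from untreated C57BL/6 mice of 3 months, whose microglia, the resident macrophages of the brain, were isolated without enzymes and sorted by flow cytometry. Nuclei were cut with the Tn5 transposase of the Nextera kit, which inserts sequencing adapters into open chromatin. The labels do not give the IRF8KO allele, the markers of the sort or whether the replicates of a genotype came from different animals, so the spread between replicates may be partly technical.

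IRF8 belongs to the interferon regulatory factors, and macrophages need this transcription factor to mature. It binds many of its sites together with PU.1, at composite elements that join an ETS site to an IRF site. Accessible regions away from promoters are often enhancers, which can act on genes at a distance, so a region inside or near a gene need not act on that gene. Stap1 encodes an adaptor protein with a pleckstrin homology and an SH2 domain that docks on receptor tyrosine kinases and was described in blood-forming cells. Serpinb2, also called plasminogen activator inhibitor 2, is an intracellular and secreted serpin of the clade B family that inhibits urokinase and tissue plasminogen activator and is made by activated macrophages. 5730480H06Rik is a little-studied gene known by its cDNA clone name.

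Peaks with a −log10 q of 2 or more were called strict, and the strict peaks of the 4 libraries were merged where they overlapped, into 155546 regions. A region was called IRF8KO-specific when it had a strict peak in both IRF8KO libraries and no deposited peak of any strength in either WT library. The 3 loci were selected on the peak calls and pileups of these same libraries, as loci that hold such regions, so the contrast between genotypes at them is described here without a test. With 2 libraries a side, the smallest two-sided p of an exact permutation test would be 0.333. Pileup is the number of extended cut sites that cover a summit. Values are the highest deposited pileup in the region per 1000000 tags in the header of that list, abbreviated PPM. Where a library had no peak there is no value. The lowest value deposited anywhere was 0.128 PPM in WT replicate 1, 0.123 in WT replicate 2, 0.102 in IRF8KO replicate 1 and 0.106 in IRF8KO replicate 2.

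The sequences around the summits of the 1 or 2 strongest IRF8KO-specific regions of each locus are shown because the results turn on these regions and because their sequence played no part in the choice of the loci. Each is the 201 bases centred on the summit, read 5′ to 3′ on the plus strand of GRCm38. At Stap1 they are chr5:86078849-86079049, in intron 2, and chr5:86085103-86085303, in intron 4 of the main transcript and in an exon of a non-coding Stap1 transcript. At 5730480H06Rik they are chr5:48331487-48331687 and chr5:48349339-48349539, both in intron 1 of the GENCODE gene. At Serpinb2 they are chr1:107496902-107497102, between genes, and chr1:107513625-107513825, in intron 1. Capitals mark matches to any of 12 motifs searched on both strands. Names give the distance of the summit from the annotated start of the gene, with a minus sign for upstream.
Stap1 +7.2 kb: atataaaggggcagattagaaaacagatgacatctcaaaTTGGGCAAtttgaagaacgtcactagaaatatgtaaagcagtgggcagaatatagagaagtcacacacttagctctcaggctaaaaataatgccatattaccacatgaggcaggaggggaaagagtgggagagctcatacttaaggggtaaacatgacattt
Stap1 +13.5 kb: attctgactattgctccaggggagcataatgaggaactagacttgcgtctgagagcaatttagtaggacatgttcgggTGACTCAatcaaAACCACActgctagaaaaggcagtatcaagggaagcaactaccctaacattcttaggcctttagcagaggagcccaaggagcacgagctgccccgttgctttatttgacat
5730480H06Rik +3.6 kb: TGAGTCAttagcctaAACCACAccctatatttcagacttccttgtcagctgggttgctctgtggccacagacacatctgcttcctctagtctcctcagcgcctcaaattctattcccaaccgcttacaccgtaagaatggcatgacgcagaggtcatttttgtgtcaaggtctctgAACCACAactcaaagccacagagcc
5730480H06Rik +21.5 kb: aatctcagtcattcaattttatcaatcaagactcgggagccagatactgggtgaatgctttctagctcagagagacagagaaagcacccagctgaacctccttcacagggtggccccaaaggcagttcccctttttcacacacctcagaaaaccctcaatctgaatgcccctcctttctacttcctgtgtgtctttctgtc
Serpinb2 -14.4 kb: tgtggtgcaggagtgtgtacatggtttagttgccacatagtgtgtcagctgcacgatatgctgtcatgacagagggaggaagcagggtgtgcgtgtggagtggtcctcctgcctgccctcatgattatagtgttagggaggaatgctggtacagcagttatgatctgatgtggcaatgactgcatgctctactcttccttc
Serpinb2 +2.3 kb: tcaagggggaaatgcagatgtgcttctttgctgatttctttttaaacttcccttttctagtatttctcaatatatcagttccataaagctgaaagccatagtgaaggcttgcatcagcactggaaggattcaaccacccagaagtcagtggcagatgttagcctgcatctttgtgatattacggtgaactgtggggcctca

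The +7.2 kb sequence of Stap1 holds 1 match, TTGGGCAA, to the CEBP motif TTGCNNAA on the minus strand. Both the +13.5 kb sequence of Stap1 and the +3.6 kb sequence of 5730480H06Rik hold an AP-1 match (TGANTCA) followed by a RUNX match (TGTGGTT, read here from the other strand as AACCACA). The 2 matches are 5 bases apart in the former and 8 bases apart in the latter. The AP-1 match of the +3.6 kb sequence begins at the outermost base of the window, and a further AACCACA lies nearer its other end. The −14.4 kb and +2.3 kb sequences of Serpinb2 and the +21.5 kb sequence of 5730480H06Rik hold no match to any of the 12 motifs.

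The windows held 35 of the 155546 regions. Of these, 14 were IRF8KO-specific, against 3.86% of all regions, and 0 were WT-specific by the converse definition, against 5.58%. Since the loci were chosen for such regions, nothing is read from the first share. A further 10 regions were strict in all 4 libraries, against 31.0% of all regions. The remaining 11 were 4 regions strict in both IRF8KO libraries that had a peak in 1 WT library, and 7 that were strict in 1 library only. By locus, the IRF8KO-specific regions numbered 6 of 12 at Stap1, 2 of 8 at 5730480H06Rik and 6 of 15 at Serpinb2.

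Each locus had 1 IRF8KO-specific region far stronger than the others. Ranked by the lower of the 2 IRF8KO values, the +7.2 kb region of Stap1 was number 3, the +3.6 kb region of 5730480H06Rik number 4 and the −14.4 kb region of Serpinb2 number 5 of 6005 IRF8KO-specific regions. Their lower values were 3.67, 3.55 and 3.19 PPM. The median of all IRF8KO-specific regions was 0.241 and their 90th percentile 0.596. The 11 weaker IRF8KO-specific regions of the windows ran from 0.165 to 1.27 by the same measure.

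**Figure D1:**
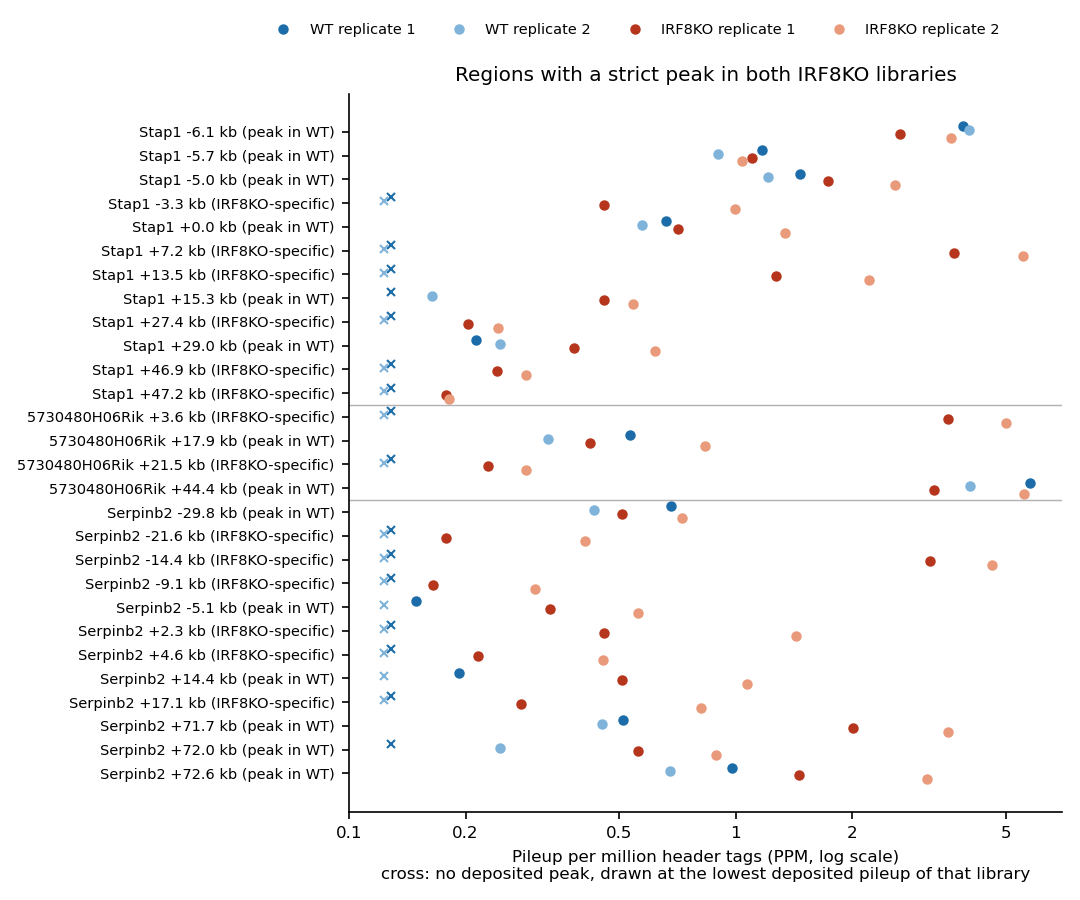
Pileup per 1000000 header tags (PPM) (log axis) in the 4 libraries at the 28 regions of the 3 windows with a strict peak in both IRF8KO libraries, named by locus and distance from the gene's start. Dots are values and crosses mark libraries with no deposited peak, drawn at the lowest pileup deposited in that library; the 14 IRF8KO-specific regions have crosses for both WT libraries.

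Stap1 lies on the plus strand at chr5:86071746-86106125. Its promoter was open in every library. The promoter region, chr5:86071665-86072059, stood at 0.660 and 0.573 PPM in the WT libraries and at 0.711 and 1.34 in the IRF8KO libraries, given here and from here on in the order replicate 1, replicate 2. WT averaged 0.616 ± 0.0620 and IRF8KO 1.03 ± 0.448 (SD, n = 2 each), a log2 difference of 0.74. The groups did not overlap, but IRF8KO replicate 1 lay close to WT replicate 1, and the means were less than 1 IRF8KO SD apart. By the authors' fold enrichment over the local background, the same region stood at 9.08, 7.91, 8.07 and 10.5 in the same order, and there the groups overlapped.

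Inside the gene the picture differed. The strongest gained region, chr5:86078608-86079170 at +7.2 kb in intron 2, had no peak in WT and stood at 3.67 and 5.53 PPM in IRF8KO, a mean of 4.60 ± 1.31 (SD, n = 2). Both values were above those of the Stap1 promoter in any library. If pileup scales with the number of tags, the lower IRF8KO value corresponds to a pileup of 172 and 179 in the WT libraries, whose lists go down to a pileup of 6. At +13.5 kb the region chr5:86084973-86085330 had no peak in WT and stood at 1.27 and 2.22 PPM in IRF8KO, number 95 of the 6005. It would have reached a pileup of 59.6 and 62.1 in the WT libraries.

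The other 4 gained regions of the Stap1 window were weaker. Upstream, at −3.3 kb between Stap1 and Cenpc1, chr5:86068357-86068652 stood at 0.457 and 0.997 PPM in IRF8KO. In intron 8, chr5:86099114-86099236 stood at 0.203 and 0.242. A pair of regions lay in an intron of Uba6, an enzyme that activates ubiquitin, and these were chr5:86118372-86118726 with 0.241 and 0.287 and chr5:86118835-86119040 with 0.178 and 0.181. These last values were close to the lowest pileup deposited, and the last region would have reached a pileup of only 8.34 and 8.69 in the WT libraries, so an absent peak there says little about WT. From summit to summit, the 6 gained regions spanned 50.5 kb.

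Regions of the Stap1 window shared by all 4 libraries were mixed. The strongest, chr5:86065181-86065890, lies 46 bp from a start of Cenpc1, a centromere protein, and stood at 3.88 and 4.01 PPM in WT and 2.67 and 3.62 in IRF8KO. It was the 1 region of the 3 windows at which both WT values lay above both IRF8KO values (log2 difference −0.33). At −5.7 kb the values overlapped, with 1.17 and 0.900 in WT and 1.10 and 1.04 in IRF8KO. At −5.0 kb they were 1.47 and 1.21 in WT and 1.73 and 2.58 in IRF8KO (log2 difference 0.69), and in intron 8 at +29.0 kb they were 0.213 and 0.245 against 0.381 and 0.619 (1.13), so that both IRF8KO libraries were higher at these regions. The +15.3 kb region in intron 5 just missed the definition of a gained region, having a weak peak of 0.164 PPM in WT replicate 2 beside 0.457 and 0.544 in IRF8KO.

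**Figure D2:**
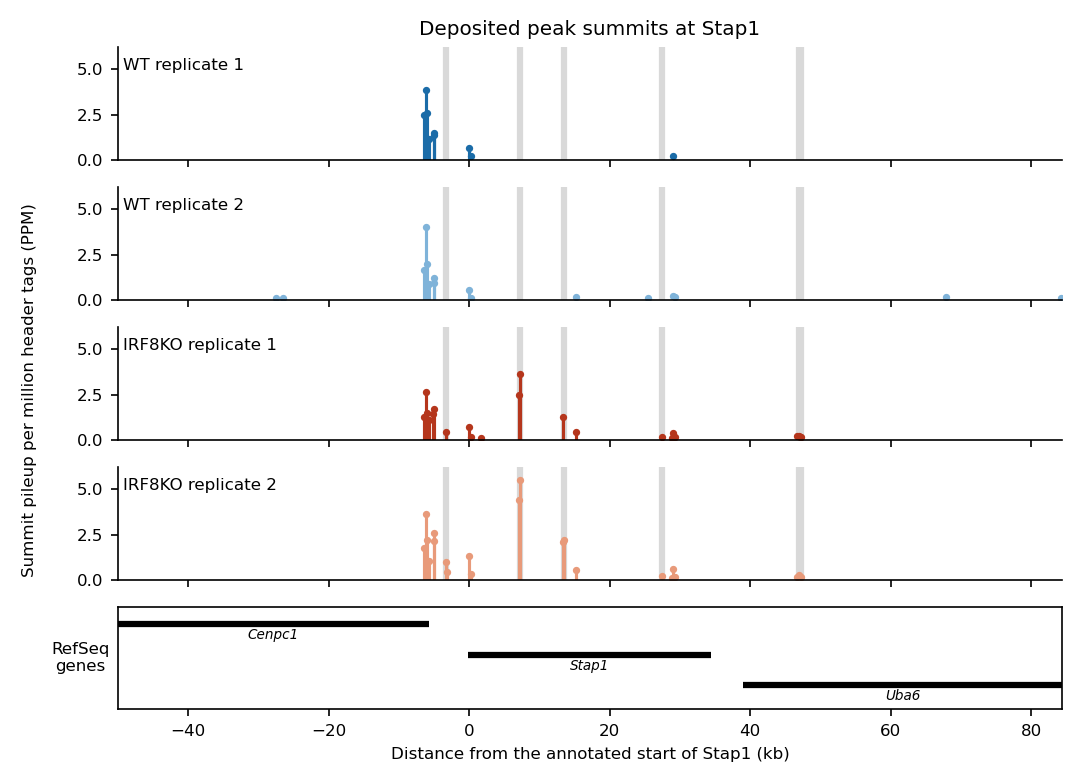
Deposited peak summits in the Stap1 window, 1 panel per library, with distance from the annotated start of Stap1 (kb) on the horizontal axis and pileup per 1000000 header tags (PPM) on the vertical axis; grey bands mark IRF8KO-specific regions and black bars RefSeq genes. The summit at +7.2 kb reaches 3.67 and 5.53 in the IRF8KO libraries and is missing in WT, while the peaks at the Cenpc1 promoter, −6.1 kb, are present in all 4.

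5730480H06Rik lies on the plus strand at chr5:48327952-48414294 in GENCODE M21, which types it as protein-coding. RefSeq divides the same stretch into Pacrgl, a protein-coding gene at chr5:48372392-48388756, and a long non-coding RNA named 5730480H06Rik at chr5:48395573-48414294. The gained regions lie upstream of both RefSeq genes and downstream of Slit2, a secreted axon guidance factor that ends at 48307735. Their assignment to 5730480H06Rik therefore rests on the GENCODE model.

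The +3.6 kb region, chr5:48331398-48331847, had no peak in WT and stood at 3.55 and 5.01 PPM in IRF8KO, a mean of 4.28 ± 1.03 (SD, n = 2). The lower value corresponds to a pileup of 167 and 174 in the WT libraries. At +21.5 kb a weak gained region, chr5:48349377-48349544, stood at 0.228 and 0.287 PPM in IRF8KO. The 5730480H06Rik window thus held 1 very strong and 1 weak gained region, with summits 17.9 kb apart.

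No library had a deposited peak within 1 kb of the annotated start of 5730480H06Rik in GENCODE, or of that of the RefSeq long non-coding RNA. A promoter at an inner GENCODE start was open in every library, and it was the strongest shared region of this window. It covers chr5:48372016-48372688, with its summit 25 bp from an inner start of 5730480H06Rik in GENCODE, and it overlaps the start of Pacrgl in RefSeq. It stood at 5.77 and 4.05 PPM in WT and 3.26 and 5.57 in IRF8KO (log2 difference −0.15). The groups overlapped. In IRF8KO replicate 1 the gained +3.6 kb region was thus as high as this promoter, 3.55 beside 3.26, and in IRF8KO replicate 2 it was 5.01 beside 5.57. The other shared region, at +17.9 kb, stood at 0.532 and 0.327 in WT and 0.419 and 0.831 in IRF8KO, also with overlap. The 4 remaining regions were strict in a lone library, at 0.166 to 0.257 PPM, and all 4 lay in introns of Slit2 or of Kcnip4, which encodes a partner of potassium channels.

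**Figure D3:**
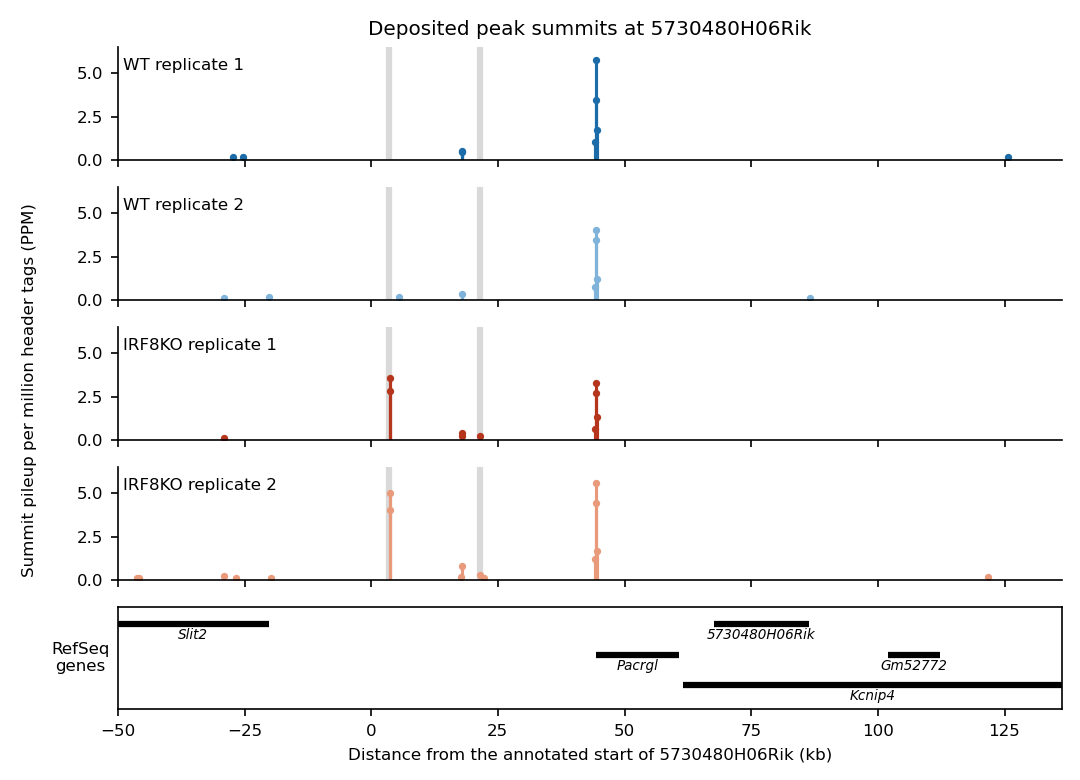
Deposited peak summits in the 5730480H06Rik window, 1 panel per library, with distance from the GENCODE start (kb) on the horizontal axis and pileup per 1000000 header tags (PPM) on the vertical axis; grey bands mark IRF8KO-specific regions and black bars RefSeq genes. The summit at +3.6 kb is present in the IRF8KO libraries at 3.55 and 5.01 and lies in the gap between Slit2 and Pacrgl, and the shared promoter region of 5730480H06Rik and Pacrgl at +44.4 kb is high in all 4 libraries.

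Serpinb2 lies on the plus strand at chr1:107511423-107535478 in a cluster of clade B serpins. No library had a strict peak within 1 kb of a GENCODE start of Serpinb2. The only deposited peak near the start was a weak one of 0.143 PPM at −0.373 kb in WT replicate 2. The gained regions therefore surrounded a promoter with no strict peak in either genotype. RefSeq starts the gene farther upstream, at 107500892.

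The strongest gained region, chr1:107496806-107497339 at −14.4 kb, had no peak in WT and stood at 3.19 and 4.61 PPM in IRF8KO, a mean of 3.90 ± 1.0 (SD, n = 2). It would have reached a pileup of 150 and 156 in the WT libraries at its lower IRF8KO value. In intron 1, at +2.3 kb, chr1:107513558-107513972 stood at 0.457 and 1.43 PPM in IRF8KO. The replicates differed most here, with a ratio of 3.14 between them.

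The other 4 gained regions were below 1 PPM in both IRF8KO libraries. These were chr1:107489563-107490036 at −21.6 kb with 0.178 and 0.408, and chr1:107502097-107502366 at −9.1 kb with 0.165 and 0.302. In intron 2, chr1:107515941-107516377 stood at 0.216 and 0.453. The last, chr1:107528375-107528626 at +17.1 kb, stood at 0.279 and 0.815 and lay 464 bp from a start of the next gene, Serpinb10, a serpin of blood-forming cells. It lay in intron 5 of a GENCODE transcript of Serpinb2, but outside the RefSeq gene, which ends at 107525600. The −9.1 kb region, the weakest, would have reached a pileup of 7.75 and 8.07 in the WT libraries, near the lowest that their lists hold. It lies upstream of the GENCODE start but inside the RefSeq gene.

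Several other regions of the Serpinb2 window had a WT peak and were higher in both IRF8KO libraries. At −5.1 kb a weak peak of 0.149 PPM in WT replicate 1 stood beside 0.330 and 0.559 in IRF8KO. In intron 5 of the same GENCODE transcript, also past the RefSeq end, a strict peak of 0.192 in WT replicate 1 at +14.4 kb stood beside 0.508 and 1.07. At +72.0 kb, WT replicate 2 had 0.245 and the IRF8KO libraries 0.558 and 0.891. In each of these 3 regions 1 WT library had no peak.

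At the downstream end of the window lay the shared regions that differed most. The +71.7 kb region, chr1:107582792-107583224, stood at 0.511 and 0.450 PPM in WT and at 2.01 and 3.55 in IRF8KO, with means of 0.481 ± 0.0433 for the former and 2.78 ± 1.09 for the latter (SD, n = 2 each). Its log2 difference of 2.53 was the highest of the 10 shared regions of the 3 loci. Its fold enrichment over the local background was 7.13 and 6.96 in WT and 16.3 and 17.2 in IRF8KO, again without overlap. The +72.6 kb region, chr1:107583865-107584386, stood at 0.980 and 0.675 in WT and 1.46 and 3.13 in IRF8KO (log2 difference 1.47). By fold enrichment, 13.2 and 10.1 in WT against 11.7 and 15.0 in IRF8KO, its groups overlapped.

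These regions lie 6.88 kb or less from the start of Serpinb8, a clade B serpin that inhibits the protease furin, and so are nearer to it than to Serpinb2. The Serpinb8 promoter itself, chr1:107589871-107590498, was the nearest region beyond the edge of the window and stood at 0.128 and 0.205 PPM in WT and 0.965 and 1.18 in IRF8KO. On the other side of the gene, the shared region at −29.8 kb was the outermost inside the window. It stood at 0.682 and 0.429 in WT and 0.508 and 0.725 in IRF8KO, with overlap.

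**Figure D4:**
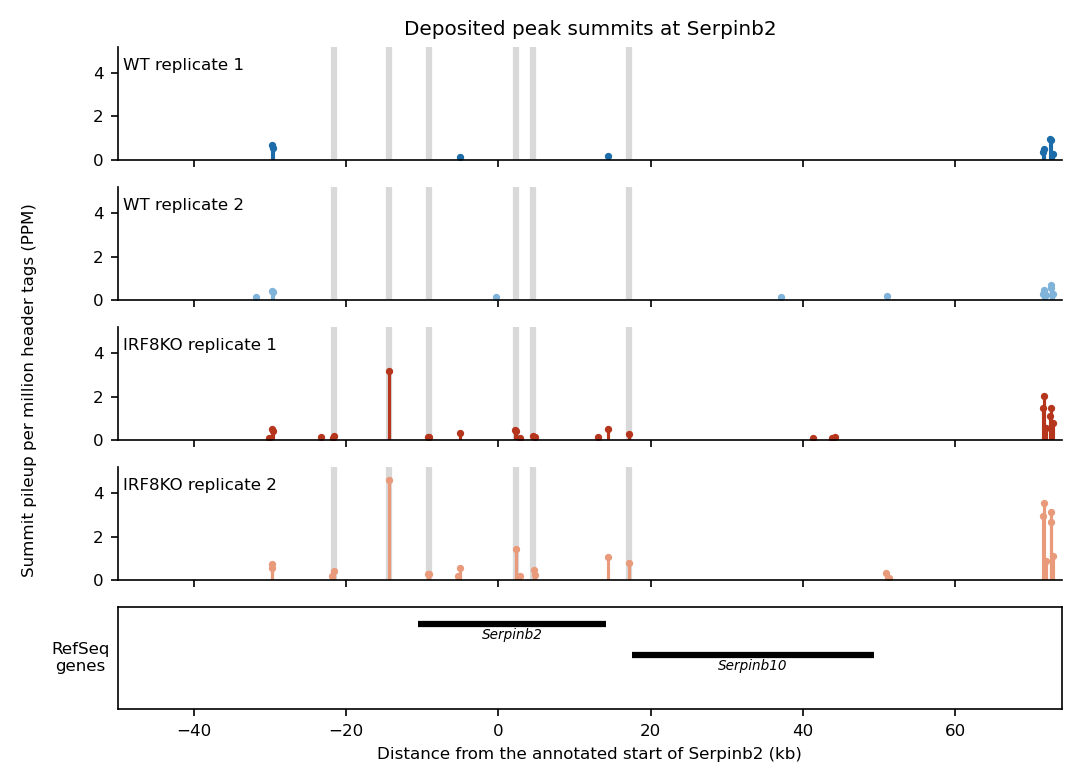
Deposited peak summits in the Serpinb2 window, 1 panel per library, with distance from the GENCODE start of Serpinb2 (kb) on the horizontal axis and pileup per 1000000 header tags (PPM) on the vertical axis; grey bands mark IRF8KO-specific regions and black bars RefSeq genes. The 6 gained regions lie from −21.6 to +17.1 kb around a start without a strict peak, and the shared regions at the right edge, +71.7 and +72.6 kb, are higher in the IRF8KO libraries.

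Over all 3 loci, a deposited peak was found in all 4 libraries at 10 regions. Both IRF8KO values lay above both WT values at 5 of them, 3 at Stap1 and 2 at Serpinb2, against 11.9% of 58550 such regions genome-wide. Both WT values lay above at 1, against 37.1% genome-wide. The loci were chosen on peak calls and pileups of these same libraries, so nothing is read from these shares. By fold enrichment, the groups overlapped at the Stap1 promoter and at +72.6 kb of Serpinb2, which are among the 5. The median log2 difference was 0.69 at Stap1 (5 regions), 0.19 at 5730480H06Rik (2 regions) and 1.47 at Serpinb2 (3 regions), while the median of all such regions was −0.28. Measured by fold enrichment instead, the medians were 0.13 at Stap1, 0.19 at 5730480H06Rik and 0.30 at Serpinb2, and that of all such regions was −0.09. The medians at Stap1 and Serpinb2 were thus smaller by fold enrichment, though this did not hold for every region, and the cause was not tested. At −5.0 kb of Stap1, fold enrichment was 6.28 and 5.60 in WT and 9.07 and 9.82 in IRF8KO. At +29.0 kb of Stap1 it was 3.88 and 4.47 in WT and 7.61 and 11.7 in IRF8KO. Without IRF8KO replicate 2, the medians by pileup were 0.21 at Stap1, −0.31 at 5730480H06Rik and 0.82 at Serpinb2, and that of all such regions was −0.61. The sign at 5730480H06Rik also turned, to −0.08, without WT replicate 2.

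**Figure D5:**
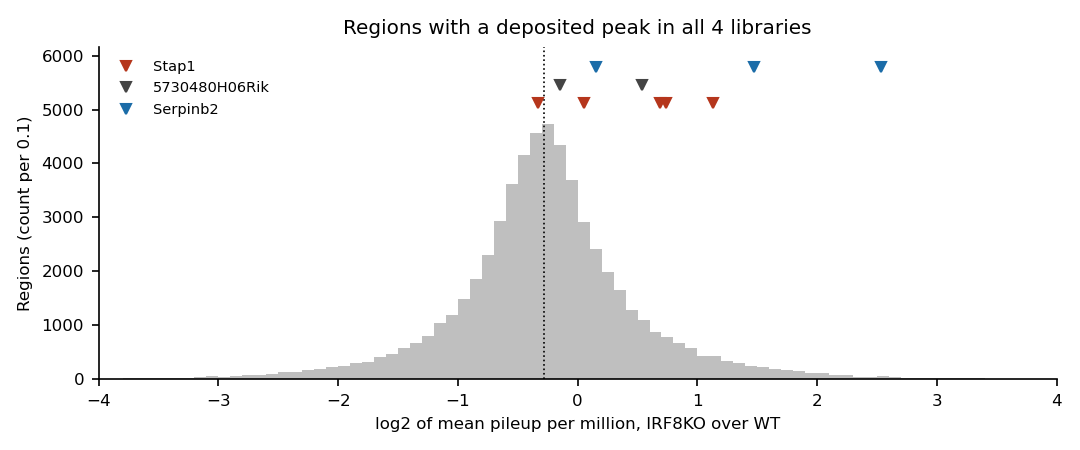
Distribution of the log2 ratio of mean PPM, IRF8KO over WT, at the 58550 regions with a deposited peak in all 4 libraries (grey bars, count per bin of 0.1; the few values beyond ±4 are not drawn); the dotted line is their median, −0.28. Triangles show the 10 such regions of the 3 loci, from −0.33 at the Cenpc1 promoter in the Stap1 window to 2.53 at +71.7 kb of Serpinb2.

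Among the 14 gained regions, IRF8KO replicate 2 was higher than replicate 1 at every one, with ratios of 1.02 to 3.14. This was so at 90.2% of all IRF8KO-specific regions, and regions open in all libraries had a median ratio of 1.51, so the excess of replicate 2 is not particular to the 3 loci. The summits called in the 2 IRF8KO libraries lay 1 to 78 bp apart, a distance that the merging of overlapping peaks keeps short. The merged regions had a median length of 356 bp, beside 253 bp for all IRF8KO-specific regions. At their lower IRF8KO value, 6 of the 14 would have reached a pileup of 20 or more in WT replicate 1. Among these 6, the −3.3 kb region of Stap1 had a fold enrichment over the local background of only 2.33 and 3.65 in IRF8KO. It was not IRF8KO-specific at a −log10 q of 5 or a fold enrichment of 5, so its absence in WT is also weak evidence. The other 8 of the 14 would have reached 7.75 to 13.7 in the WT libraries, where an absent peak is weak evidence of closed chromatin.

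Gained regions lay close together at Stap1 and Serpinb2. The strongest region of each had 5 other IRF8KO-specific regions within 50 kb, which 2.75% of all IRF8KO-specific regions matched or passed. The strongest region of 5730480H06Rik had 1, which 55.2% matched or passed. Among 31440 genes, 30.3% had at least 1 IRF8KO-specific region in the gene body plus 50 kb and 40.2% had at least 1 WT-specific region. Stap1 and Serpinb2, with 6 gained and 0 lost, were tied at place 31 by the excess of gained over lost regions. Their neighbours Uba6 and Serpinb10 also had 6 gained and 0 lost, from the same regions, so the counts do not single out 1 gene. 5730480H06Rik, with 2 gained and 0 lost, was tied with many genes at place 755, and 6.61% of genes had at least this excess. Since the loci were chosen for such regions, nothing is read from their places or from the counts of regions near their strongest ones. The highest excesses were those of Runx2, a transcription factor of bone formation, with 12, of Gm36642, Rftn1, a lipid raft protein, and Trps1, a zinc finger repressor, with 11 each, and of 0610040F04Rik with 10. Their windows, from 164 to 419 kb, were longer than those of Stap1 (134 kb) and Serpinb2 (124 kb).

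Motifs were counted in the 201 bases around each summit. The ETS-IRF composite motif (GGAA and GAAA with 2 bases of any kind between them) was in 0 of the 14 gained regions, beside 4.31% of all regions and 1.83% of all IRF8KO-specific ones. AP-1 was in 4 of 14 (8.12% of all regions and 18.9% of IRF8KO-specific ones), namely the +13.5 kb and +46.9 kb regions of Stap1, +3.6 kb of 5730480H06Rik and −9.1 kb of Serpinb2. CEBP was in 2 of 14 (9.54% and 20.6%), RUNX in 2 (5.57% and 11.0%), the interferon-stimulated response element (GAAA repeated after 2 bases) in 2 (3.12% and 2.96%), and PU.1 (GAGGAAGT) in 1 (7.73% and 7.83%). The PU.1 match lay 3 bp from the summit of the +27.4 kb region of Stap1, and the MEF2 motif (CTA and TAG, 4 bases apart) was in 1 region, at +46.9 kb (3.36% and 3.93%). The MAF (TGCTGA and GCA, 4 bases apart), NF-kB (GGGA and TTCC, 2 bases apart), E-box (CACGTG), STAT (TTCCNGGAA) and CTCF (CCA, AG and GGC, each 2 bases apart) motifs were in none of the 14 windows, and they were in 0.543%, 1.05%, 4.09%, 0.694% and 5.57% of all regions. In the order printed, the shares of all IRF8KO-specific regions were 0.966%, 2.1%, 4.63%, 0.616% and 1.98%. Of the 10 regions of the same windows that were strict in all 4 libraries, AP-1 was in 3, so it was not particular to the gained regions. PU.1 was in 3 of these 10, MEF2 in 2, CTCF in 2 and CEBP in 1, and the other motifs were in none. Letters of the ETS-IRF, interferon and PU.1 motifs can overlap, and a match is a match of letters, not a measured binding site.

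An AP-1 and a RUNX match separated by at most 10 bases, as at +13.5 kb of Stap1 and +3.6 kb of 5730480H06Rik, occurred in 0.0759% of all regions and 0.333% of IRF8KO-specific regions. This pairing was noticed after the matches had been seen and is given as a description. The median GC content of the 14 windows was 45.0%, beside 46.8% for all IRF8KO-specific and 49.3% for all regions.

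Related genes were described from 3 lists. Of 26 protein-coding clade B serpins, 12 (46.2%) had a gained region and 4 (15.4%) a lost one, beside 30.3% and 40.2% of all genes, but neighbouring serpins share regions. Around the 12 serpins of the cluster that holds Serpinb2, chr1:106861173-107610484, 11 of 59 regions (18.6%) were gained and 2 lost, beside 3.86% and 5.58% of all regions, and 6 of the 11 were those of the Serpinb2 window, for which the locus was chosen. Serpinb7, a clade B serpin first described in the kidney, also had 6, of which 3 were shared with Serpinb2. Its promoter was the only one of these 26 that was strict in both IRF8KO and in neither WT library (0.444 and 0.664 PPM), which held for 0.967% of all genes. Serpinb10, which GENCODE types as a polymorphic pseudogene and the list therefore lacks, showed the same through the +17.1 kb region. The promoter of Serpinb1b, an inhibitor of neutrophil proteases, showed the converse, with 1.24 and 1.06 PPM in WT and no strict peak in IRF8KO, as at 1.37% of all genes. The 17 serpins with no strict promoter peak in any library included Serpinb2.

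Of 14 genes of plasminogen activation, the reaction that Serpinb2 inhibits, 6 (42.9%) had a gained and 7 a lost region, beside 30.3% and 40.2% of all genes. Plau, the urokinase that Serpinb2 blocks, had 1 of each, and its promoter stood at 0.767 and 0.818 PPM in WT and 0.914 and 0.831 in IRF8KO. Plat, the tissue activator, had 0 gained and 3 lost, and its promoter stood at 1.06 and 0.695 in WT and 0.305 and 0.695 in IRF8KO. Plaur, the urokinase receptor, had 2 gained and 1 lost. Serpine2, another inhibitor of these proteases, had 0 gained and 3 lost, and its promoter was lower in both IRF8KO libraries, 0.190 and 0.438 beside 0.852 and 0.859. No promoter of the list was strict in both libraries of 1 genotype and in neither of the other.

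Of 23 genes of receptor kinase signalling around Stap1, 14 (60.9%) had a gained and 18 (78.3%) a lost region, beside 30.3% and 40.2% of all genes. Stap2, the other member of the adaptor family, had 1 gained and 2 lost, and its promoter stood at 1.79 and 1.37 PPM in WT and 0.533 and 0.725 in IRF8KO. Csf1r, the receptor on which microglia depend, had 1 gained and 3 lost, Tec, a kinase known to phosphorylate Stap1, 3 gained and 6 lost, and Lyn, a Src family kinase, 4 of each. Cbl, a ubiquitin ligase, and Plcg2, a phospholipase, had 3 gained and 0 lost each. The converse, 0 gained and 3 lost, was found at Fyn, a Src family kinase, and Gab2, a docking protein, and the Fyn promoter stood at 5.47 and 5.46 PPM in WT and 1.55 and 2.52 in IRF8KO.

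The libraries differed in ways that bear on these values. The WT lists come from 46948938 and 48896408 tags of 50 bp, and the IRF8KO lists from 78793572 and 66224648 tags of 49 bp. Depth and tag size thus follow genotype and cannot be told apart from it. The defining markers of microglia were present, with strict promoter peaks at 12 of 12 in both WT and 11 of 12 in both IRF8KO libraries, where Sall1, a microglial transcription factor, was missing. Their summed values were 33.8 and 24.6 PPM in WT and 15.6 and 24.3 in IRF8KO, and 5 of the 12 (41.7%) had a gained and 10 (83.3%) a lost region, beside 30.3% and 40.2% of all genes. Promoters of 7 markers of border macrophages, which live in the meninges and around vessels, were strict at 3 and 4 in WT and at 5 and 6 in IRF8KO, with summed values of strict promoter peaks of 2.24 and 2.09 PPM in WT and 4.02 and 6.27 in IRF8KO. Cd163 (0.520 and 1.10) and Ms4a7 (0.558 and 0.695) were strict in IRF8KO only, and Lyve1 had no strict promoter peak in any library. Of the 7, 6 (85.7%) had a gained and 4 (57.1%) a lost region, beside 30.3% and 40.2% of all genes. The part of such cells in the gained regions of the 3 loci was not tested, and in bulk libraries more cells of a type and more open chromatin per cell cannot be told apart. Promoters of 10 markers of monocytes and peripheral macrophages were strict at 3 and 6 in WT and at 5 in both IRF8KO libraries, with summed values of 3.54 and 3.13 in WT and 1.61 and 2.1 in IRF8KO, and Ccr2, Ly6c2 and Plac8 had no strict promoter peak in any library. Among the other lists, 5 markers of T or NK cells summed to 1.43 and 1.60 in WT and 3.88 and 3.90 in IRF8KO, most of it at Cd3d, with no strict promoter peak at Cd3e and Ncr1 in any library. The 5 endothelial markers summed to 7.16 and 5.75 in WT and 1.43 and 2.05 in IRF8KO, of which Cdh5 alone gave 5.86 and 4.81 (WT) and 0.647 and 0.936 (IRF8KO). By the same sum, the 7 B cell markers reached 1.3 and 1.21 in WT and 0.749 and 0.755 in IRF8KO, with no strict promoter peak at Cd79a, Cd79b, Ms4a1 and Blk. Neutrophil markers summed to 1.19 and 0.491 in WT and 0.178 and 0.453 in IRF8KO, oligodendrocyte markers to 2.04 and 1.47 in WT and 0.495 and 1.15 in IRF8KO, and epithelial markers to at most 0.286 in any library. Astrocyte markers (3.02 and 2.15 in WT, 1.85 and 3.64 in IRF8KO) and neuronal markers (0.426 and 1.49 in WT, 0.393 and 0.604 in IRF8KO) overlapped between genotypes.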

How the data were processed

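ATAC-seq peak lists of 2 WT and 2 IRF8KO libraries, 1 per library, were used, grouped by the genotype in the labels. Per the submitters' processing notes, bcl2fastq, Bowtie2, MACS2 and deepTools were used with the mm10 build, which is GRCm38. Peak calling was done by the authors on single libraries with MACS2 2.1.1.20160309 and no control, per the file headers, at a p cutoff of 0.01, with cut sites shifted by -37 bp, extended to 73 bp and set against a 10 kb local background. The deposited pileup is a signal in whole numbers, not scaled for depth. Fold enrichment, as deposited, is a ratio to the local background, and the deposited p and q are −log10 values. These peak scores are the authors' own.

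Repeated intervals were reduced to distinct peaks with the highest summit. Strict peaks on chromosomes 1 to 19 and X were merged where they shared at least 1 base. All 676057 peaks on these 20 chromosomes lay inside the GRCm38 lengths. Setting pileup per 1000000 tags (PPM) across lists assumes that pileup scales with depth, and every threshold on q moves with depth. A promoter is a strict peak within 1 kb of any annotated start of the gene. Gene models are GENCODE M21, RefSeq of GRCm38.p6 was used where named, and sequences are from the RefSeq GRCm38.p6 genome. Regions were printed in full where IRF8KO-specific, at a promoter of a named locus or strongest among shared ones. Genes named were the 3 loci, their neighbours, list members with a genotype-specific region and the 5 genes of highest excess. Some cell type markers were also named for a promoter peak or the lack of one. Of these, Cd3d, Cd79a, Ms4a1 and Ly6c2 had 0 gained and 0 lost regions. The +71.7 and +72.6 kb regions of Serpinb2, Serpinb8 and other shared regions were chosen after their values were seen. The members and the gene, marker and motif lists were chosen with earlier results of these data known. The merging, classing and motif steps were tested on simulated peaks and sequences. Python 3.11.15, numpy 2.4.6, pandas 2.3.3 and pyfaidx 0.9.0.4 were used. Alternatives are given at the end.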

Additional observations from a re-analysis of the deposited data

How the results depend on the processing

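Alternatives were a stricter or looser peak threshold, another rule for absence or overlap, other flanks, other scalings and leaving out each library. The largest change came from a fold enrichment of 5 in place of q, which left 2 IRF8KO-specific regions at Stap1, 1 at 5730480H06Rik and 3 at Serpinb2, the 6 regions that were IRF8KO-specific under all 9 settings of threshold, absence, overlap and library: +7.2 and +13.5 kb of Stap1, +3.6 kb of 5730480H06Rik, and −14.4, +2.3 and +17.1 kb of Serpinb2. Leaving out 1 library gave 6 to 7 at Stap1, 2 to 3 at 5730480H06Rik and 7 to 8 at Serpinb2. The share over all regions, 3.86%, moved far more, to 15.0% without IRF8KO replicate 1, 14.4% without IRF8KO replicate 2, 6.09% without WT replicate 1 and 5.69% without WT replicate 2, and the fold enrichment setting gave 2.37%. WT-specific regions stayed at 0 to 0 at Stap1 and ran from 0 to 2 at 5730480H06Rik (2 without WT replicate 2) and from 0 to 1 at Serpinb2 (1 without WT replicate 1), since 1 library then had to hold a peak. The median log2 difference of shared regions ran from 0.21 to 0.95 at Stap1, from −0.31 to 0.57 at 5730480H06Rik and from 0.82 to 1.92 at Serpinb2 when 1 library was left out. It was reversed at 5730480H06Rik without WT replicate 2 (−0.08) and without IRF8KO replicate 2 (−0.31). With fold enrichment in place of pileup it moved to 0.13 at Stap1 and 0.30 at Serpinb2; the cause was not tested. Scaling to equal medians gave 0.97, 0.46 and 1.71 at the 3 loci in the same order. A flank of 100 kb gave 0.37, 0.19 and 2.0. A flank of 20 kb left no shared region at Serpinb2 and so no value. Motif matches were in 8 of 14 summit windows and in 10 of 14 whole regions. No paired analysis was possible because the values come from no test and the labels do not tie libraries of the same number together. Depth limits the 8 weaker gained regions, whose IRF8KO level corresponds to a pileup of 7.75 to 13.7 in WT.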
